A study of Mus musculus with 4 samples.

Results

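Leukocyte integrins are represented here by 10 genes, taken as the rows named Itgal, Itgam, Itgad, Itgb1, Itgb2, Itgb7, Itga4, Itga5, Itga6 and Itga9 among the 35869 genes of the expression files. RNA-seq was performed on CD45+ immune cells isolated with microbeads from the eWAT, the fat pad beside the epididymis, of male wild-type mice. The mice received ND (10% of calories from fat, 2 samples) or HFD (60% of calories from fat, 2 samples) for 12 weeks from 8 weeks of age, and no other genotype or treatment enters the comparison. The sources used here do not state how many mice each sample holds, so p-values measure only the spread between these samples. The question addressed was which integrin transcripts of eWAT immune cells differ between HFD and ND.

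An integrin is a pair of an alpha and a beta subunit that spans the plasma membrane and holds a cell to another cell or to the extracellular matrix. Its resting form binds weakly, and signals from chemokine or antigen receptors recruit talin and kindlin to the beta tail and switch it to a form that binds tightly. The β2 integrins are particular to leukocytes and mediate firm adhesion, phagocytosis and the immune synapse. The α4 and β7 subunits guide lymphocytes and mast cell precursors into tissues, and the β1 integrins bind mostly matrix proteins. In adipose tissue, leukocytes meet the vessel wall, the matrix around adipocytes and the adipocytes themselves.

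Among the 10 members, Itgb2, Itga5 and Itga6 were higher in HFD than in ND, and Itgal, Itgb7 and Itga9 were lower. On the log2(TPM + 1) scale the changes ran from Itgb7, at 77.8 ± 1.2 TPM in ND and 22.9 ± 5.09 in HFD, to Itga5, at 54.1 ± 0.636 and 143 ± 11.5 (mean ± SD, n = 2 per diet here and below). By the ratio of mean TPM, Itgal fell more than Itgb7 (3.63-fold and 3.40-fold). TPM is a read count divided by gene length and scaled to the same total in each sample. A gene was called when limma on log2(TPM + 1) gave an adjusted p under 0.05 and the ratio on that scale was 1.5-fold or more. All 10 members passed the filter, which kept genes that reached 1 TPM in 2 or more samples, and 6 of them were called, whereas 18.4% of the 16849 genes tested were called. By direction, 3 of 10 members were higher (8.08% of all genes tested) and 3 of 10 lower (10.3%). Without the fold limit, 8 of 10 members had an adjusted p under 0.05 (27.3% of all genes tested). The HFD and ND values did not overlap for any of the 10 members, which was also the case for 66.9% of all genes tested. With ND replicate 1 or ND replicate 2 left out, 0 of 10 members and 0 of all genes tested were called, although 8 members had an unadjusted p under 0.05 by limma. The same 6 members were called when either of the HFD samples was left out. The median log2 fold change was 0.18 over the members and 0.06 over all genes tested.

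**Figure D1:**
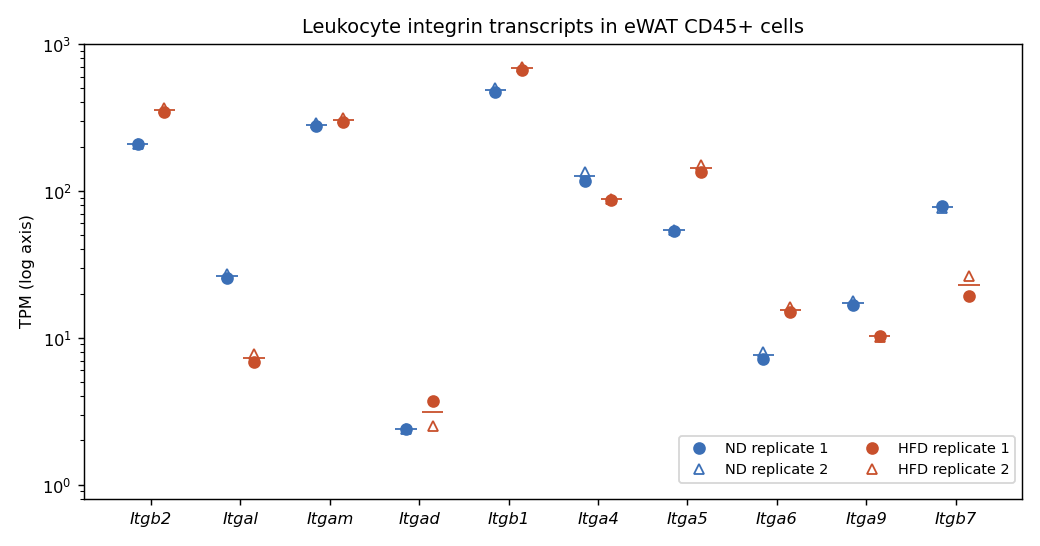
TPM of each of the 10 integrin genes in the 2 ND and the 2 HFD samples, on a log axis, with 1 point per sample and a short line at the mean of each diet. The HFD points lie above the ND points for Itgb2, Itga5 and Itga6 and below them for Itgal, Itgb7 and Itga9, whereas those of Itgam and Itgad lie close together.

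The libraries were first checked for their content. Ptprc, the gene of CD45 by which the cells were isolated, was at 54.5 and 59.4 TPM in ND and at 55.3 and 53.7 in HFD (log2 fold change -0.06, adjusted p = 0.547, limma). One read on a transcript of 1 kb stood for 0.0606 to 0.0712 TPM, as estimated from the steps in the values of microRNA genes. At these steps the members rested on approximately 711 to 43905 reads per sample, except Itgad with 154 to 270. The samples of both diets also held RNA of cells outside the immune lineage. Of 6 fibroblast genes 4 were called higher, with a summed TPM of 522 to 561 in ND and 2837 to 5686 in HFD, and the sum of 4 spermatid genes reached 6108 in HFD replicate 1 against 1644 to 1910 in the other samples. The ND samples held more RNA of epididymal epithelium (4 of 4 markers lower in HFD, summed TPM 91.8 to 106.8 in ND and 9.5 to 14.5 in HFD). Of 4 mesothelial markers 1 was lower in HFD (summed TPM 74.9 to 78.9 in ND and 38.4 to 55.3 in HFD). In bulk RNA, fewer cells of a type and less RNA per cell cannot be told apart.

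The promoters of 3 members are shown, chosen for their different patterns: Itgam, whose level moved little, Itga5, which was higher in HFD, and Itga4, which was lower but under the fold limit. Each run is the 250 bases before the RefSeq start of the gene in GRCm38.p6, written 5′ to 3′ on the strand of the gene, and capitals mark GAGGAA or its reverse complement TTCCTC, the letters at the centre of sites bound by the myeloid factor PU.1. They lie at chr7:128062390-128062639 (plus strand) for Itgam, chr15:103366792-103367041 (minus strand) for Itga5 and chr2:79255176-79255425 (plus strand) for Itga4.
Itgam: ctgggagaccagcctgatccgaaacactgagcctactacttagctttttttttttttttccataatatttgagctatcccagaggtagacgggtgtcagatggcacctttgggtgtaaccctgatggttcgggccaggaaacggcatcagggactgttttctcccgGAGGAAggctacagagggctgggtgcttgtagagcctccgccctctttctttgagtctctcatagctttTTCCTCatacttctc
Itga5: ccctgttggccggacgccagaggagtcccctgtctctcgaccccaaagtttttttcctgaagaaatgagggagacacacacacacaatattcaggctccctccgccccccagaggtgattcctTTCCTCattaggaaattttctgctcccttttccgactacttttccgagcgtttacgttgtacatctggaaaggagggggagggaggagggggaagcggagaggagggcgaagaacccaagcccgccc
Itga4: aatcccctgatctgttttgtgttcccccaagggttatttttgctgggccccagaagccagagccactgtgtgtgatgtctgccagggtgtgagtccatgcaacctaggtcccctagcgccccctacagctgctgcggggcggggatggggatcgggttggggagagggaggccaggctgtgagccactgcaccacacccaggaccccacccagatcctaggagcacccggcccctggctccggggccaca
The Itgam promoter held 2 matches and the Itga5 promoter 1, and these letters were absent from the Itga4 window. Of the 10 members, 6 had a promoter in the table used (Itgam, Itgb1, Itgb7, Itga4, Itga5 and Itga9), and 3 of the 6 held a match on either strand, against 23.3% of the 32851 promoters in the table. The letters GGGCGG or their reverse complement CCGCCC, the core of sites bound by Sp1 family factors, occurred 2 times in the Itga5 window, 1 time in that of Itgam and 1 time in that of Itga4, and in 32.7% of all promoters. The starts used in the table for Itga9 and Itgb7 lie inside the RefSeq genes, so for these members the sequence before the outermost start was not examined.

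Of the β2 integrins, the common chain was examined first. Itgb2 encodes CD18, the β2 subunit without which none of its alpha partners reaches the cell surface. The gene spans chr10:77530252-77565708 (mm10, plus strand, 16 exon blocks). Itgb2 was at 207.4 and 209.7 TPM in ND and at 341.9 and 366.5 in HFD. Both HFD samples lay above both ND samples, and the gap between diets was far wider than that between replicates. Itgb2 was 1.70-fold higher in HFD by the ratio of mean TPM, with a log2 fold change of 0.76 (95% interval 0.61 to 0.91, SE 0.05, adjusted p = 0.00790, limma). Relative to Ptprc, Itgb2 was 3.81 and 3.53 in ND and 6.18 and 6.82 in HFD. The higher level of Itgb2 was thus also seen against the pan-leukocyte gene.

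Itgal encodes CD11a, which pairs with CD18 as LFA-1, the receptor of lymphocytes for ICAM-1. It lies at chr7:127296260-127335138 (plus strand, 32 exon blocks). Itgal was at 25.4 and 27.3 TPM in ND and at 6.8 and 7.7 in HFD. Its values were high in both ND samples and low in both HFD samples, opposite in direction to its partner Itgb2. By mean TPM Itgal was 3.63-fold lower in HFD, with a log2 fold change of -1.73 (95% interval -2.01 to -1.45, SE 0.09, adjusted p = 0.00611, limma). Genes of lymphocytes moved the same way. All 6 tested of 7 T cell markers were lower in HFD, with a summed TPM of 355.0 to 360.3 in ND and 56.5 to 67.6 in HFD, as were 5 of 5 NK cell markers (60.2 to 63.9 and 11 to 11.9) and 5 of 5 B cell markers (114.0 to 115.6 and 23.1 to 27.1). The mast cell, resident macrophage and neutrophil lists, given with other members below, were lower as well. No marker of the T, NK and B cell lists was at 0 in all samples, and the part of any list in the fall of Itgal was not tested. Per unit of Cd3e, a T cell receptor chain, Itgal was at 1.25 and 1.34 in ND and 2.62 and 1.79 in HFD. The ratio was higher in both HFD samples (exact two-sided permutation test p = 0.33, the smallest that 2 against 2 samples can give). Its direction depends on the marker chosen. By mean TPM, Cd3d, Cd3e, Cd3g, Lck and Cd2 fell by more than Itgal (5.31-fold to 7.60-fold). Cd247 (2.05-fold) and Themis (3.17-fold, not tested) fell by less.

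Itgam encodes CD11b, which pairs with CD18 as Mac-1, the complement receptor of macrophages, monocytes and neutrophils. It lies at chr7:128062640-128118491 (plus strand, 30 exon blocks), 727501 bases from Itgal. Itgam was at 275.7 and 288.5 TPM in ND and at 293.9 and 311.3 in HFD. The HFD samples were higher, although the nearest values of the diets were closer to each other than the replicates were. Its log2 fold change was 0.10 (95% interval -0.05 to 0.26, SE 0.05, adjusted p = 0.248, limma) and turned to -0.04 after quantile normalization (adjusted p = 0.526). The interval leaves a change of Itgam of at most 0.26 on the log2 scale at the upper bound. Among 7 macrophage markers, 2 were higher in HFD and none lower, with a summed TPM of 4438 to 4473 in ND and 4777 to 5259 in HFD. Of 5 monocyte markers 2 were lower and none higher (239.0 to 251.1 and 110.7 to 158.4), and the 5 tested neutrophil markers were lower (71.4 to 94.7 and 28.4 to 30.8). The part of these cells in the level of Itgam was not tested. An annotated readthrough gene, Gm49368, shares 3450 exon bases with Itgam on the same strand and was not among the rows used here, so reads of the pair may have been assigned differently than to Itgam alone.

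Itgad encodes CD11d, an alpha subunit found on macrophages that handle lipid or red cells. It was the lowest of the members, at 2.4 and 2.4 TPM in ND and at 3.7 and 2.5 in HFD. HFD replicate 1 was higher than the other samples, which were nearly level. Its log2 fold change was 0.25 (95% interval -0.30 to 0.81, SE 0.19, adjusted p = 0.390, limma), from 0.04 without HFD replicate 1 to 0.47 without HFD replicate 2. A difference in Itgad was therefore not resolved at this depth and spread. The gene (chr7:128154376-128223816, plus strand, 34 exon blocks) starts 3718 bases after the end of Itgax. Of the 4555 runs of 50 bases in its transcripts, 384 also occur in those of Itgax, whereas no other pair of members, nor any other member with Itgax, shared such a run. Its exons also overlap Gm39091, 4931431B13Rik and Cox6a2 on the opposite strand by 102, 388 and 70 bases. On the same strand, the processed pseudogene Gm17831 shares 330 exon bases with Itgad. The strand setting used in counting is not given in the sources used here, and the Itgad value is uncertain for all these reasons.

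The fourth alpha partner of CD18 is CD11c, encoded by Itgax, which is not among the members and lies 11055 bases after Itgam. Itgax was at 84.1 and 86.4 TPM in ND and at 438.8 and 446.8 in HFD (log2 fold change 2.36, adjusted p = 0.00378, limma). Of the summed TPM of Itgal, Itgam, Itgad and Itgax, Itgam held 71.1% and 71.3% in ND and 39.5% and 40.5% in HFD. The share of Itgal was 6.55% and 6.75% in ND and 0.915% and 1.0% in HFD. Itgad held 0.619% and 0.593% in ND and 0.498% and 0.325% in HFD. Each of the 3 members thus held a smaller share of the β2 alpha transcripts in HFD, by -31.2 points for Itgam, -5.69 for Itgal and -0.195 for Itgad. The share of Itgax was 21.7% and 21.4% in ND and 59.0% and 58.2% in HFD, 37.1 points higher. No share overlapped between diets, and each exact two-sided permutation test gave p = 0.33, the smallest that these group sizes allow.

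When Itgax was left out, the picture for Itgam and Itgad turned, since Itgal was then the only member that fell. The share of Itgal among the 3 members was 8.37% and 8.58% in ND and 2.23% and 2.40% in HFD, a difference of -6.16 points. Itgam was 5.94 points higher, and Itgad 0.224 points higher with overlapping samples. Against the β2 chain, the 3 member alphas together reached 1.46 and 1.52 times the TPM of Itgb2 in ND and 0.890 and 0.877 times in HFD. With Itgax included, the alpha sum was 1.87 and 1.93 times Itgb2 in ND and 2.17 and 2.10 times in HFD. The summed level of the 3 members, 303.5 and 318.2 TPM in ND and 304.4 and 321.5 in HFD, overlapped between diets.

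**Figure D2:**
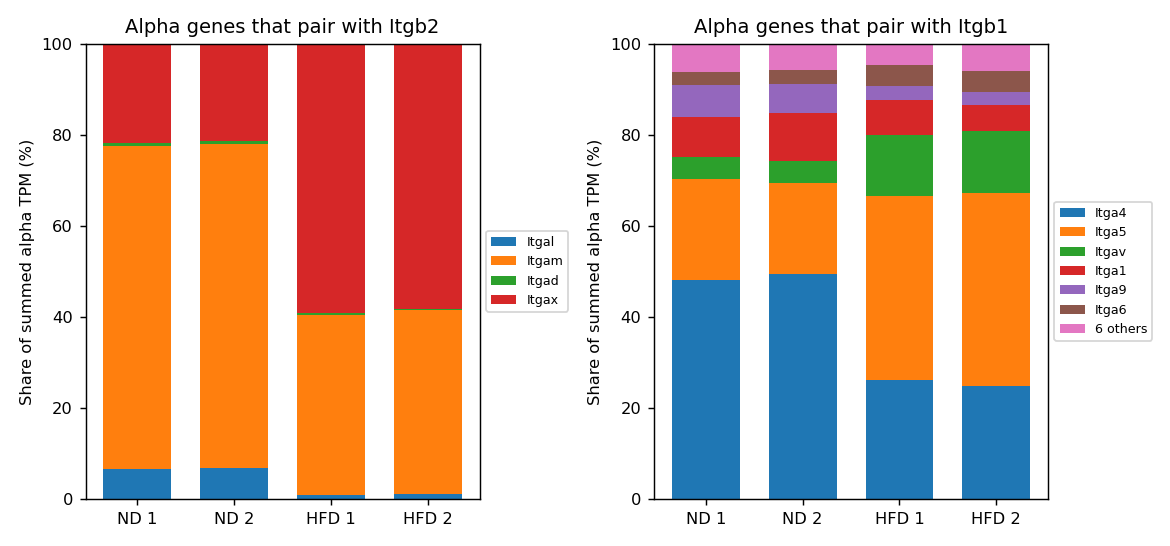
Share of each alpha subunit gene in the summed TPM of the alpha genes that pair with Itgb2 and with Itgb1, in percent, with 1 stacked bar per sample. Itgax takes 58.2% to 59.0% of the β2 alpha transcripts in HFD and 21.4% to 21.7% in ND, and Itga5 overtakes Itga4 among the β1 alpha transcripts.

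Of the β1 integrins, Itgb1 encodes CD29, the beta chain shared by the matrix receptors of nearly all cells. It spans chr8:128685654-128733200 (plus strand, 17 exon blocks) and was the most abundant member in both diets. Itgb1 was at 473.1 and 504.0 TPM in ND and at 665.4 and 700.0 in HFD, with both HFD samples above both ND samples. Its log2 fold change was 0.48 (95% interval 0.32 to 0.64, SE 0.05, adjusted p = 0.0164, limma), a 1.40-fold difference under the limit of 1.5. The fibroblast genes given above, which come from cells that also carry CD29, moved in the same direction. Their part in the level of Itgb1 was not tested.

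Itga5 encodes the α5 subunit, which with CD29 forms VLA-5, the main receptor for fibronectin. It lies at chr15:103344286-103366763 (minus strand, 30 exon blocks). Itga5 was at 53.6 and 54.5 TPM in ND and at 134.5 and 150.7 in HFD. The ND samples were nearly level and both HFD samples lay far above them. Itga5 was 2.64-fold higher in HFD, with a log2 fold change of 1.38 (95% interval 1.16 to 1.6, SE 0.07, adjusted p = 0.00602, limma), the largest increase among the 10 members. The microRNA gene Mir6963, which lies in an intron of Itga5 on the same strand, was at 163.1 and 177.5 TPM in ND and at 483.1 and 538.6 in HFD, a value that may include reads from the Itga5 transcript. Genes of lipid-associated macrophages moved in the same direction. All 6 of 6 such markers were higher in HFD, with a summed TPM of 1151 to 1205 in ND and 8029 to 8369 in HFD. Of the 6 fibroblast genes, from cells that also carry this receptor, 4 were higher too. The sums of both lists, like Itga5, were highest in HFD replicate 2. The part of either cell type in the rise of Itga5 was not tested.

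Itga6 encodes the α6 subunit of laminin receptors and lies at chr2:71745616-71858416 (plus strand, 31 exon blocks). Its level was low, at 7.2 and 8.0 TPM in ND and at 14.9 and 16.2 in HFD. Both HFD samples were above both ND samples. Itga6 was 2.05-fold higher in HFD, with a log2 fold change of 0.94 (95% interval 0.66 to 1.23, SE 0.09, adjusted p = 0.0135, limma). Endothelial cells and platelets carry this subunit. None of 6 endothelial markers was called (summed TPM 221.2 to 222.7 in ND and 251.8 to 264.4 in HFD). Under the fold limit, Cdh5 passed the p threshold in the direction of Itga6 (80.8 and 82.0 TPM in ND, 111.6 and 112.7 in HFD, log2 fold change 0.46, adjusted p = 0.0110, limma) and Egfl7 in the opposite direction (-0.31, adjusted p = 0.0360). Of 4 tested platelet markers 2 were lower (summed TPM 1812 to 1862 in ND and 767.0 to 776.3 in HFD, nearly all of it Pf4), whereas Gp1bb was at 2.2 and 2.2 TPM in ND and 3.4 and 3.3 in HFD (0.44, adjusted p = 0.0473, under the fold limit). The part of these cells in the rise of Itga6 was not tested.

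Itga9 encodes the α9 subunit, a receptor for tenascin-C and osteopontin, at chr9:118606690-118901003 (plus strand, 32 exon blocks). Itga9 was at 16.7 and 17.7 TPM in ND and at 10.3 and 10.2 in HFD. The replicates lay within 1.0 TPM of each other in ND, and both HFD samples were lower. It was 1.68-fold lower in HFD, with a log2 fold change of -0.69 (95% interval -0.90 to -0.49, SE 0.07, adjusted p = 0.0136, limma). With a pseudocount of 5 the log2 fold change was -0.54, under the fold limit. All 6 of 6 resident macrophage markers (summed TPM 3759 to 3835 in ND and 1079 to 1295 in HFD) were lower as well, and 5 of 5 tested neutrophil markers (71.4 to 94.7 and 28.4 to 30.8, with Ly6g at no more than 0.1 TPM). Their part in the fall of Itga9 was not tested.

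Itga4 encodes the α4 subunit, which pairs with CD29 as VLA-4, the receptor for VCAM-1 and fibronectin, and with β7 as the gut homing receptor. It lies at chr2:79255426-79333123 (plus strand, 27 exon blocks). Itga4 was at 116.0 and 134.7 TPM in ND and at 87.1 and 87.8 in HFD. The ND replicates were spread and the HFD replicates level, without overlap. The log2 fold change was -0.51 (95% interval -0.78 to -0.24, SE 0.09, adjusted p = 0.0360, limma), which passed the p threshold but not the fold limit. After quantile normalization the log2 fold change was -0.63 and Itga4 was called (adjusted p = 0.0153). Its exons overlap those of Cerkl on the opposite strand by 1124 bases, and Cerkl was at 8.0 and 8.0 TPM in ND and 4.7 and 5.0 in HFD.

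Set against each other, the fibronectin receptors changed their order. Itga5 was 0.462 and 0.405 times the TPM of Itga4 in ND and 1.54 and 1.72 times in HFD (exact two-sided permutation test p = 0.33). Of the summed TPM of the alpha genes that pair with Itgb1, Itga4 held 48.1% and 49.5% in ND and 26.1% and 24.7% in HFD. Itga5 held 22.2% and 20.0% in ND and 40.4% and 42.5% in HFD. Itga9 held 6.92% and 6.50% in ND and 3.09% and 2.87% in HFD, and Itga6 held 2.99% and 2.94% and 4.47% and 4.56%. The alpha sum amounted to 0.510 and 0.540 times Itgb1 in ND and 0.501 and 0.507 times in HFD, nearly the same ratio. This sum counts Itga4 and Itgav in full, although both also pair with other beta chains. Itgav held 4.81% and 4.85% of it in ND and 13.6% and 13.6% in HFD. The ratio without these genes was not examined.

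Itgb7 encodes the β7 subunit, which pairs with α4 for homing to mucosa and with αE, encoded by Itgae, for binding to E-cadherin. It lies at chr15:102215995-102231944 (minus strand, 16 exon blocks), 1112341 bases from Itga5. Itgb7 was at 78.6 and 76.9 TPM in ND and at 19.3 and 26.5 in HFD. The values were high in both ND samples and low in both HFD samples, with a wider spread in HFD. It was 3.40-fold lower in HFD, with a log2 fold change of -1.74 (95% interval -2.26 to -1.21, SE 0.17, adjusted p = 0.0136, limma). Itgb7 and Itgal had the largest decreases among the 10 members, of nearly the same size. Of the genes of its partners, Itgae was at 3.3 and 2.9 TPM in ND and at 2.2 and 1.2 in HFD (log2 fold change -0.63, adjusted p = 0.144, limma).

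The beta chains of α4 diverged. Itga4 was 1.48 and 1.75 times Itgb7 in ND and 4.51 and 3.31 times in HFD. Itgb1 was 6.02 and 6.55 times Itgb7 in ND and 34.5 and 26.4 times in HFD. β7 is carried by mast cells, T cells, B cells and subsets of dendritic cells. All 4 of 4 mast cell markers were lower in HFD, with a summed TPM of 1142 to 1144 in ND and 279.5 to 349.3 in HFD. Of 5 conventional dendritic cell markers, 2 were lower and none higher (395.5 to 422.3 and 79.3 to 79.5). Most of this sum was Cd209a (367.2 and 393.0 TPM in ND, 65.0 and 58.0 in HFD), and Flt3, Xcr1 and Clec9a were not called. HFD replicate 2 was higher than HFD replicate 1 in Itgb7 and in the mast, T and B cell sums. The dendritic cell sums of the HFD replicates were nearly level. The part of the mast, T, B and dendritic cells in the fall of Itgb7 was not tested.

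**Figure D3:**
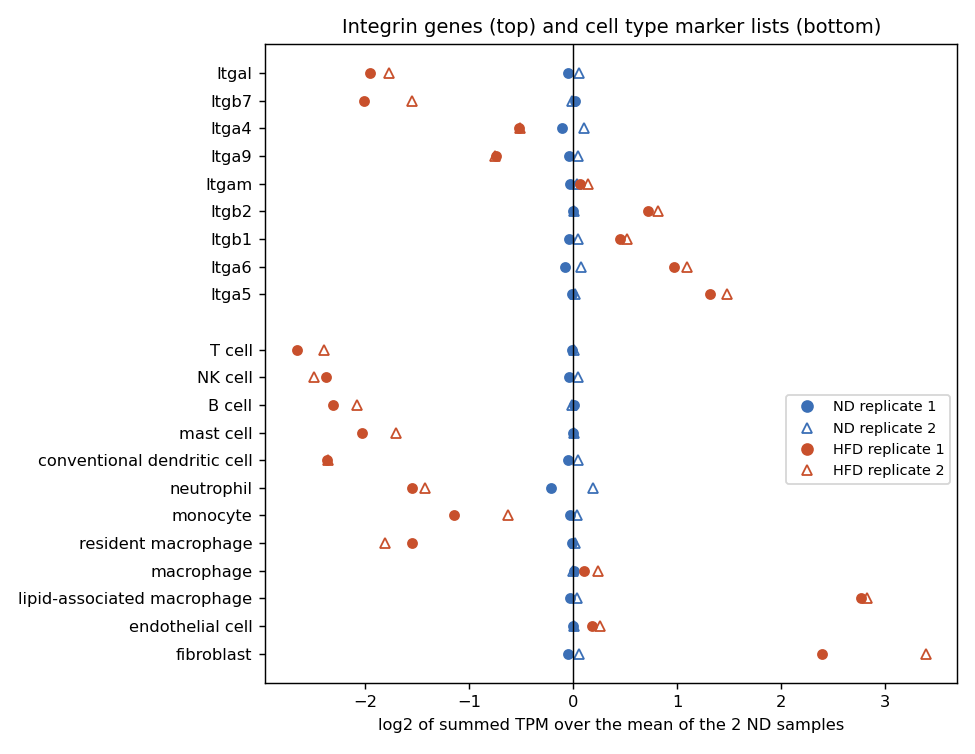
Log2 ratio of each sample to the ND mean, for the TPM of the integrin genes except Itgad and for the summed TPM of cell type marker lists, with 1 point per sample. Itgal and Itgb7 lie between -1.55 and -2.01 in the HFD samples, as do the mast cell (-1.71 and -2.03) and resident macrophage (-1.55 and -1.81) lists in whole or in part, with the neutrophil list (-1.43 and -1.55) above and the T cell list (-2.40 and -2.66) below.

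The order of the members by level differed between diets. In ND it ran Itgb1, Itgam, Itgb2, Itga4, Itgb7, Itga5, Itgal, Itga9, Itga6 and Itgad, and in HFD Itgb1, Itgb2, Itgam, Itga5, Itga4, Itgb7, Itga6, Itga9, Itgal and Itgad. The ranges of neighbours did not overlap in either diet. Itgal went from above Itga9 and Itga6 to below both, and Itgb2 from below Itgam to above it. The lead of Itgam over Itgal was 10.9-fold and 10.6-fold in ND and 43.2-fold and 40.4-fold in HFD.

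**Figure D4:**
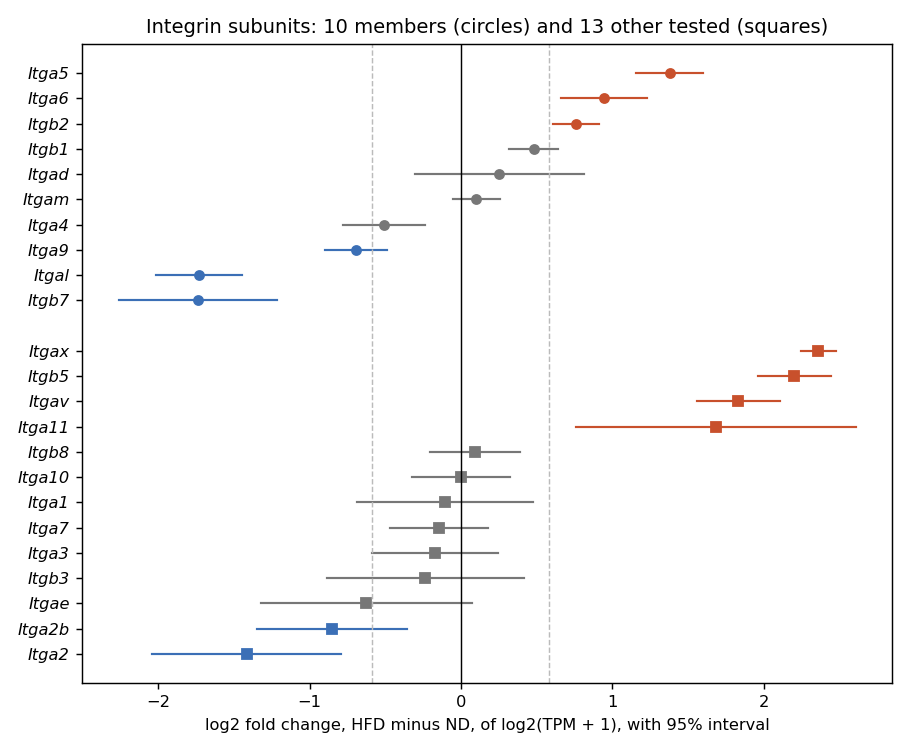
Log2 fold change of HFD against ND for the 10 members and the other integrin subunits tested, on the log2(TPM + 1) scale, with the 95% interval from limma as a line. Red marks genes called higher, blue those called lower and grey those not called, dashed lines mark the 1.5-fold limit, and the member values range from -1.74 for Itgb7 to 1.38 for Itga5.

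Of 17 other integrin subunits, 13 were tested and 6 were called, 4 higher and 2 lower, and the median log2 fold change was -0.11 (18.4% of all genes tested were called, with a median of 0.06). Beside Itgax, the increases included Itgb5, which was at 38.7 and 38.1 TPM in ND and at 169.4 and 192.4 in HFD (log2 fold change 2.20, adjusted p = 0.00449). Its partner Itgav, which binds vitronectin and activates latent TGF-beta, was at 11.6 and 13.2 TPM in ND and at 45.2 and 48.2 in HFD (1.83, adjusted p = 0.00561). The decreases were in Itga2 (4.9 and 6.1 TPM in ND, 1.8 and 1.1 in HFD) and Itga2b (7.9 and 7.3, and 3.2 and 4.4), the alpha chains of the platelet receptors for collagen and fibrinogen.

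Of 27 integrin ligands, 21 were tested and 8 were called, 6 higher and 2 lower, with a median log2 fold change of 0.57, beside 18.4% of all genes tested that were called. Spp1, encoding osteopontin, a ligand of α4, α9 and αv integrins, was at 4.5 and 5.3 TPM in ND and at 72.3 and 109.4 in HFD (log2 fold change 3.93, adjusted p = 0.00714, limma). Svep1, encoding a ligand of α9, was at 7.8 and 7.9 TPM in ND and at 34.3 and 66.6 in HFD (2.46, adjusted p = 0.0261). Lamb1, encoding a laminin chain, was at 7.9 and 8.7 TPM in ND and at 25.8 and 50.3 in HFD (2.0, adjusted p = 0.0386). In Spp1, Svep1 and Lamb1, HFD replicate 2 was higher than HFD replicate 1. The fibroblast sum had the same order, as did the sums of several other lists, among them the macrophage, lipid-associated macrophage and endothelial lists. The part of any of these cells in the values of Spp1, Svep1 and Lamb1 was not tested.

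The ligands that fell included Fn1, encoding fibronectin, at 133.6 and 139.1 TPM in ND and at 66.1 and 88.6 in HFD (log2 fold change -0.82, adjusted p = 0.0461, limma). Fn1 thus moved opposite to its receptor gene Itga5. Cdh1, encoding the E-cadherin bound by αEβ7, was at 2.1 and 2.5 TPM in ND and at 0.7 and 0.9 in HFD (-0.87, adjusted p = 0.0272). It is an epithelial gene and moved with the epididymal epithelium markers given above, whose part in its fall was not tested. The counter-receptors on other cells were singled out after their values had been seen. Icam1 was at 450.4 and 450.8 TPM in ND and at 343.1 and 349.1 in HFD (-0.38, adjusted p = 0.0111, under the fold limit), and Vcam1 at 61.6 and 65.1 in ND and 63.6 and 72.2 in HFD (0.10, adjusted p = 0.474).

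Of 37 activators and adaptors of integrins, 36 were tested and 8 were called, 3 higher and 5 lower, with a median log2 fold change of 0.07. This share is near that of all genes tested (18.4%), whereas 19 of the 36 passed without the fold limit (27.3% of all genes tested). Ptk2b, encoding the adhesion kinase Pyk2, was at 9.3 and 9.6 TPM in ND and at 18.2 and 18.8 in HFD (log2 fold change 0.90, adjusted p = 0.00887, limma). Vcl, encoding vinculin, which ties talin to actin, was at 46.7 and 49.6 TPM in ND and at 79.3 and 74.2 in HFD (0.66, adjusted p = 0.0130). The kinase gene Src, at 1.0 and 1.1 TPM in ND, was at 2.5 and 2.6 in HFD (0.79, adjusted p = 0.0198).

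The largest decreases in this list were in Skap1, Rasgrp2 and Fgr. Skap1, an adaptor through which the T cell receptor activates LFA-1, was at 5.5 and 5.0 TPM in ND and at 0.9 and 1.1 in HFD (log2 fold change -1.64, adjusted p = 0.00827, limma). Rasgrp2, encoding the exchange factor that activates Rap1, was at 6.1 and 6.4 TPM in ND and at 2.1 and 1.9 in HFD (-1.27, adjusted p = 0.00909). The Src family kinase Fgr was at 30.2 and 30.7 TPM in ND and at 14.2 and 17.6 in HFD (-0.90, adjusted p = 0.0231). Skap1 and Rasgrp2 moved in the direction of Itgal and of the T cell list. The NK cell, B cell, mast cell, resident macrophage and neutrophil lists were lower in HFD as well. The genes of talin and of the leukocyte kindlin, Tln1 and Fermt3, were singled out after their values had been seen, and had log2 fold changes of 0.26 (adjusted p = 0.0463, under the fold limit) and 0.06 (adjusted p = 0.354). Apbb1ip and Skap2, other adaptors on the path from receptors to integrins and chosen in the same way, were opposite in direction to Skap1 (0.58, adjusted p = 0.0118, and 0.52, adjusted p = 0.0153, both under the fold limit).

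**Figure D5:**
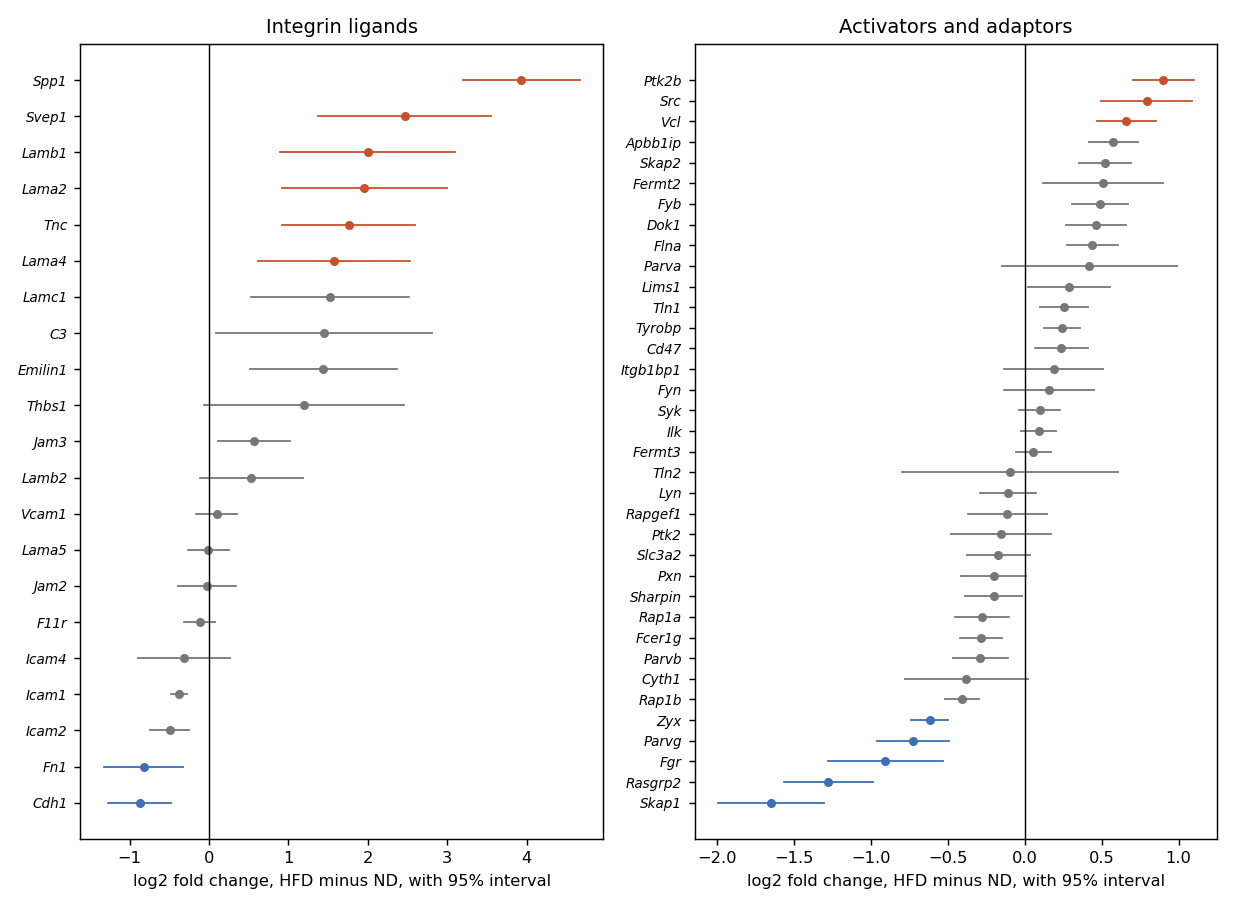
Log2 fold change of HFD against ND for each tested integrin ligand (21 genes, left) and activator or adaptor (36 genes, right), with the 95% interval from limma as a line and separate horizontal scales. Red marks genes called higher in HFD, blue those called lower and grey those not called, and Spp1 (3.93) and Skap1 (-1.64) lie at the ends.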

How the data were processed

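RNA-seq of 4 samples was used as the authors deposited it, as TPM per gene to 1 decimal. The authors prepared stranded mRNA libraries, trimmed reads (Trim Galore 0.4.2, cutadapt 1.9.1, per the submitters' processing notes), aligned them to mm10 (STAR 2.6.1e), removed duplicates with Sambamba, counted reads per gene (featureCounts 1.6.2) and scaled them to TPM, which are relative levels. The annotation and strand setting are not given in the sources used here, and depth is known only approximately from microRNA genes.

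The 16849 genes that reached 1 TPM in 2 or more samples were compared as log2(TPM + 1) with limma 3.58.1 in R 4.3.3 (eBayes with a variance trend, Benjamini-Hochberg adjustment over all genes tested). This understates changes of low genes. A call needed an adjusted p under 0.05 and 1.5-fold. Single ratios and shares were compared by exact two-sided permutation tests (scipy 1.17.1). Figures used matplotlib 3.10.9 in Python 3.11.15.

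The 10 members, the 3 pathway lists and the 19 cell type marker lists were chosen with earlier results of these data known. The values of 1 gene in each of 2 lists are not reported here, and the counts are without them. Named were all members, Itgax, Itgae, and per pathway list up to 3 called increases and 3 called decreases with non-overlapping groups. Exon coordinates came from GENCODE vM21 and promoters from RefSeq (GRCm38.p6). Alternatives were pseudocounts of 0.1 and 5, other filters, scalings and fold limits, no variance trend, a replicate block and leaving out each sample.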

Additional observations from a re-analysis of the deposited data

How the results depend on the processing

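Of the 10 members, 6 were called, and the calls were the same in number or within 1.5 times under most settings, except 3 with a 2-fold limit and 3 with the replicate number as a block. Same-numbered samples did not deviate together across genes (correlation -0.015). With 2 samples per diet, this value cannot decide whether the numbers pair samples. Under the replicate block Itgal, Itgb2 and Itga5 remained called, whereas Itgb7, Itga6 and Itga9 did not (adjusted p = 0.0527, 0.0600 and 0.0760, limma). All genes called numbered 3097, 2015 with a pseudocount of 5, 812 with the block and 1602 with a 2-fold limit. Of the other subunits 6 were called, 3 without a filter and 3 with the block. Of the ligands 8 were called, 5 with a pseudocount of 5, 1 without a filter and 1 with the block. Of the activators and adaptors 8 were called, 19 without a fold limit (beside 27.3% of all genes tested), 5 with a mean TPM of 5 or more, 2 with a 2-fold limit and 0 with the block (20 at unadjusted p under 0.05, limma).

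When each replicate was left out in turn, calls ranged from 0 to 6 for the members, 0 to 4177 for all genes, 0 to 6 for the other subunits, 0 to 12 for the ligands and 0 to 9 for the activators and adaptors. The counts of 0 arose without ND replicate 1 and without ND replicate 2, where 1 ND sample remained, its spread was taken from HFD, and 3471 and 3686 of all genes, 8 and 8 members, 4 and 4 other subunits, 3 and 3 ligands and 15 and 15 adaptors had an unadjusted p under 0.05 by limma. Quantile normalization reversed Itgam (-0.040). Without Itgax among the β2 alphas, the differences in share were -6.16 points for Itgal, 5.94 for Itgam and 0.224 for Itgad. The cause of these differences was not tested, apart from the lost denominator gene in the shares and the fewer samples in the left-out fits. Apart from Itgam, every member kept its direction in all settings run. Low depth limits Itgad, and 2 samples per diet limit all tests.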

Other observations

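Surface molecules that act before or beside integrins were also examined, in 2 lists written after the integrin results had been seen. Of 11 selectin genes, their ligands and the enzymes that build them, 10 were tested and 6 were called, 3 higher and 3 lower, and the median log2 fold change was -0.43 (18.4% of all genes tested were called). Cd24a, encoding a ligand of P-selectin, was at 265.0 and 276.0 TPM in ND and at 59.9 and 62.0 in HFD (log2 fold change -2.13). Cd44, encoding the hyaluronan receptor that also binds osteopontin, was at 23.1 and 24.9 TPM in ND and at 48.3 and 50.8 in HFD (1.02). Cd24a moved in the direction of Itgal and Cd44 in that of Itga5.

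Tetraspanins are membrane proteins that gather integrins in microdomains. All 14 listed were tested and 8 were called, 4 higher and 4 lower, with a median log2 fold change of 0.16, beside 18.4% of all genes tested that were called. Cd9, which is also in the lipid-associated macrophage list, was at 167.3 and 171.1 TPM in ND and at 843.3 and 910.1 in HFD (2.37), and Cd63 at 200.7 and 196.2 in ND and 516.0 and 553.8 in HFD (1.43). Cd81 was at 858.2 and 869.2 TPM in ND and at 369.6 and 407.4 in HFD (-1.15). Tspan32 was at 10 and 9.7 TPM in ND and at 2.0 and 1.5 in HFD (-1.99). The tetraspanins thus moved in both directions, as the integrin genes did.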
